A study of Arabidopsis thaliana with 6 samples.

Results

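Plastids and plant mitochondria keep small genomes of their own, yet nearly all proteins that transcribe these genomes and cut, splice and edit their RNAs are encoded in the nucleus, made in the cytosol and imported. Many of them are pentatricopeptide repeat (PPR) proteins, each of which binds 1 or a few RNA sites and directs a single step there, such as the change of a chosen C to U or the removal of an intron. In leaves these factors are best known from mutants that lose a plastid protein complex, turn pale or grow slowly because 1 organelle transcript is left unedited or unspliced.

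The genes described here are nuclear genes for organelle gene expression, chosen with earlier results of these data known. The rule uses the symbol and no measured value: OTP, MEF, CRR, SIG, PTAC, RPOT, MORF, CRS, CAF, SLO or MTERF followed by a number, or by a letter and a number. Of 13356 genes named by a probe set of their own, 14 met this rule, each through a single probe set. Only 3 of the 11 families were measured under such a name: 8 OTP genes, 5 CRR genes and CAF1. The RefSeq gene table of assembly TAIR10.1 holds 59 nuclear genes that meet the rule, and the other genes are not analysed here. By the known site of action of their products, 12 of the 14 act in plastids and 2, OTP43 and OTP87, in mitochondria.

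The study set epiF3 plants (3 arrays) against Col-0 wild type plants (3 arrays), all of the Col-0 ecotype, aged 30 days and grown at 22 °C with 12 h of light per day. RNA of the aerial part was hybridised to an Affymetrix expression array, 1 sample to an array, and titles number the samples as biological replicates 1 to 3. The labels name no transgene, treatment or pooled plants. The description of the epiF3 samples speaks of albino plants of an msh1 mutant, the labels do not settle how that fits the name epiF3, and MSH1 is not analysed here.

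Values are log2 array signals, and a change is the epiF3 mean minus the wild type mean on that scale, tested with limma, in which the spread of each probe set is moderated by that of all others. Differences in level are read between arrays for 1 gene at a time, since probe sets differ in how they respond to RNA. Brightness across probe sets serves only to say which signals lie near the array's floor. A lower signal in a bulk sample cannot be told apart from fewer cells of a type. Array medians were 4.08 to 4.28 in epiF3 and 4.25 to 4.32 in wild type. The lowest belonged to epiF3 replicate 3, which also had the highest lower quartile, 2.58 against 2.35 to 2.41 on the other arrays, and the highest mean of 18 hybridization controls, 10.53 against 7.11 to 8.36. Of 29 listed green shoot marker genes, 6 were measured under a name (LHCB4.1, LHCB4.2, RCA, PRK, CHLI2 and PORB). Their signals averaged 10.23 to 10.64 on epiF3 arrays and 10.7 to 10.91 on wild type arrays. Changes were negative for 6 of 6 (median -0.24), and 0 passed the threshold used below. Unadjusted limma p was 0.0235 for PORB (change -0.92) and 0.0173 for CHLI2 (-0.62), and 10.9% of all probe sets fell under 0.05. With 1 array left out the change of PORB ran from -1.24 to -0.61, the latter without wild type replicate 3. That of CHLI2 ran from -0.74 to -0.40, the latter without epiF3 replicate 3. The changes of the other green shoot markers ran from -0.26 to -0.02 over all arrays. Every epiF3 array of CHLI2 and LHCB4.1 lay below every wild type array, as for 7.11% of all probe sets, while LHCB4.2, RCA, PRK and PORB overlapped. The part of these markers in the results was not tested. Signals of 2 root markers (PYK10 and EXPA7) averaged 3.04 to 3.52 in epiF3 and 3.13 to 3.40 in wild type. Those of 2 flower and anther markers (AMS and SPL) averaged 2.04 to 2.26 in epiF3 and 2.14 to 2.26 in wild type. AMS and SPL lay in the lowest 25% of values on all 6 arrays.

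None of the 14 genes passed the limma threshold of 0.05, adjusted over all 22746 probe sets, at which 0.598% of all probe sets were called (0.268% higher and 0.33% lower in epiF3). Unadjusted p values were under 0.05 for 0 of 14 genes, against 10.9% of all probe sets. The smallest adjusted p was 0.573, for OTP86. Changes ran from -0.39 for CRR42 to 0.22 for CRR41, with standard errors of 0.12 to 0.27. For 13 of the 14 the 95% interval of the change lay inside 2-fold in both directions, and for CRR42 it reached -1.02. A missed threshold does not show that levels were alike, and these intervals give the sizes that the 6 arrays allow for a signal, apart from any damping near the array's floor.

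Most estimates were nonetheless below 0. Changes were negative for 11 of the 14 genes, against 44.3% of all probe sets, and their median was -0.20, against 0.03 over all probe sets. In the brighter 60% of probe sets 54.2% of changes were negative, with a median of -0.02. Of the 14 genes 8 were in that part, 7 of them with negative changes (median -0.24). After median centring of the arrays, 9 of 14 were negative, against 32.4% of all probe sets. Quantile normalization and array weights each gave 12 of 14, against 47.6% and 42.9% of all probe sets. A covariate for the hybridization controls gave 8 of 14 and 6 of the 12 plastid factors, against 46.8% of all probe sets. Without these adjustments, 10 of the 12 plastid factors had negative changes, with a median of -0.22. The 2 mitochondrial factors had changes of -0.02 and 0.01. With 2 mitochondrial genes, the compartments are set side by side without a test. Both mitochondrial genes and 4 of the 12 plastid genes were in the dimmest 40% of probe sets, so compartment partly overlaps with brightness. The 6 dimmer genes had a median change of -0.04. The order of the plastid and mitochondrial medians turned when epiF3 replicate 3 was left out or weighed less. Without that array the mitochondrial median was -0.195 and the plastid median -0.074, with array weights they were -0.159 and -0.122, and with a covariate for the level of the added hybridization controls -0.293 and -0.015.

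**Figure D1:**
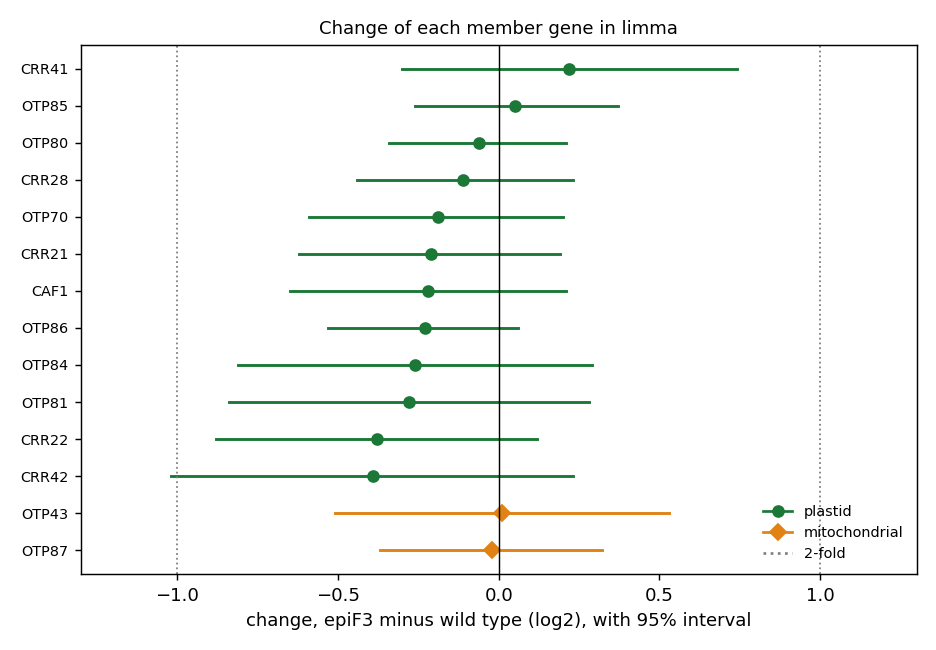
Change of each of the 14 genes (horizontal axis, epiF3 minus wild type, log2 units) with its 95% interval from limma, by gene (vertical axis). Circles are plastid and diamonds mitochondrial factors, and dotted lines mark 2-fold; every interval includes 0, and only that of CRR42 crosses a 2-fold line.

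RNA editing in plastids was represented by 8 PPR genes, 7 with negative changes (median -0.22, range -0.38 to 0.05). CRR21, CRR22, CRR28 and OTP85 direct editing of transcripts of ndhD, which encodes a subunit of the plastid NADH dehydrogenase-like (NDH) complex of cyclic electron flow. CRR22 and CRR28 also act on ndhB, and CRR22 on rpoB, which encodes a subunit of the plastid-encoded RNA polymerase. CRR stands for chlororespiratory reduction, the loss of NDH activity by which the mutants were found.

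CRR22 signals were 4.21, 3.66 and 3.50 on epiF3 arrays 1 to 3, against 4.14, 4.44 and 3.95 on wild type arrays. Replicates 2 and 3 of epiF3 lay below all wild type arrays, replicate 1 lay above 2 of them, and so the groups overlap. Means of the 3 epiF3 arrays were 3.79 ± 0.37 (SD), against 4.17 ± 0.25 (SD) for the 3 wild type arrays, a change of -0.38 (standard error 0.22, limma adjusted p = 0.582). With 1 array left out the change ran from -0.59 without epiF3 replicate 1 (limma adjusted p = 0.335) to -0.24 without epiF3 replicate 3, with -0.25 without wild type replicate 2, and it was -0.05 with the covariate for the added hybridization controls.

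CRR21 signals were 5.44, 5.39 and 4.88 in epiF3, against 5.57, 5.36 and 5.42 in wild type, a change of -0.21 (standard error 0.18.) The first pair of epiF3 arrays lay within the wild type range and replicate 3 below it, and without replicate 3 the change was -0.03. CRR28 showed 4.09, 3.72 and 3.96 in epiF3, against 4.0, 4.16 and 3.92 in wild type (change -0.11, standard error 0.14). OTP85 showed 3.16, 2.82 and 2.90 in epiF3, against 2.93, 2.96 and 2.83 in wild type (change 0.05, standard error 0.14). A single epiF3 array of CRR28 lies below the wild type range and the others within it, while those of OTP85 reach both above and below it. The 4 factors that act on ndhD thus had 3 negative changes and 1 positive change, all with overlapping groups.

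OTP86 was the 1 gene of 14 whose arrays did not overlap between the groups, which 16.9% of all probe sets also met (7.11% with epiF3 lower, 9.75% with epiF3 higher). It directs editing of rps14, the transcript of a plastid ribosomal protein. Its signals were 2.07, 2.08 and 2.33 in epiF3, against 2.37, 2.43 and 2.38 in wild type. The gap between the groups is narrow, with epiF3 replicate 3 close under the lowest wild type array. Means of the 3 epiF3 arrays were 2.16 ± 0.15 (SD), against 2.39 ± 0.03 (SD) for the 3 wild type arrays, a change of -0.23 (standard error 0.13, 95% interval -0.53 to 0.06). The change ran from -0.32 to -0.19 with 1 array left out, and was -0.16 after median centring. Of the 6 values of OTP86, 4 lay in the lowest 25% of their array, where the array's floor damps differences.

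For OTP81 and OTP84 the change shrank or turned when epiF3 replicate 3 was left out. OTP81, also known as QED1, acts on several plastid sites, among them the intron of rps12, and its signals were 4.12, 3.91 and 3.35 in epiF3, against 4.26, 4.29 and 3.69 in wild type. The change was -0.28 (standard error 0.24), and with 1 array left out it ran from -0.48 without wild type replicate 3 to -0.06 without epiF3 replicate 3. OTP84, which acts on ndhB, ndhF and psbZ, showed 3.79, 3.90 and 2.97 in epiF3, against 3.83, 3.78 and 3.85 in wild type. Its wild type arrays spread by an SD of 0.03 and its epiF3 arrays by 0.51, and its change of -0.26 (standard error 0.24) turned to 0.03 without that array. OTP84 is described array by array because of these values. OTP80, which edits rpl23, the transcript of another plastid ribosomal protein, had a change of -0.06 (standard error 0.12), and 5 of its 6 values, 2.27 to 2.38 in epiF3 and 2.34 to 2.49 in wild type, lay in the lowest 25% of their array.

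**Figure D2:**
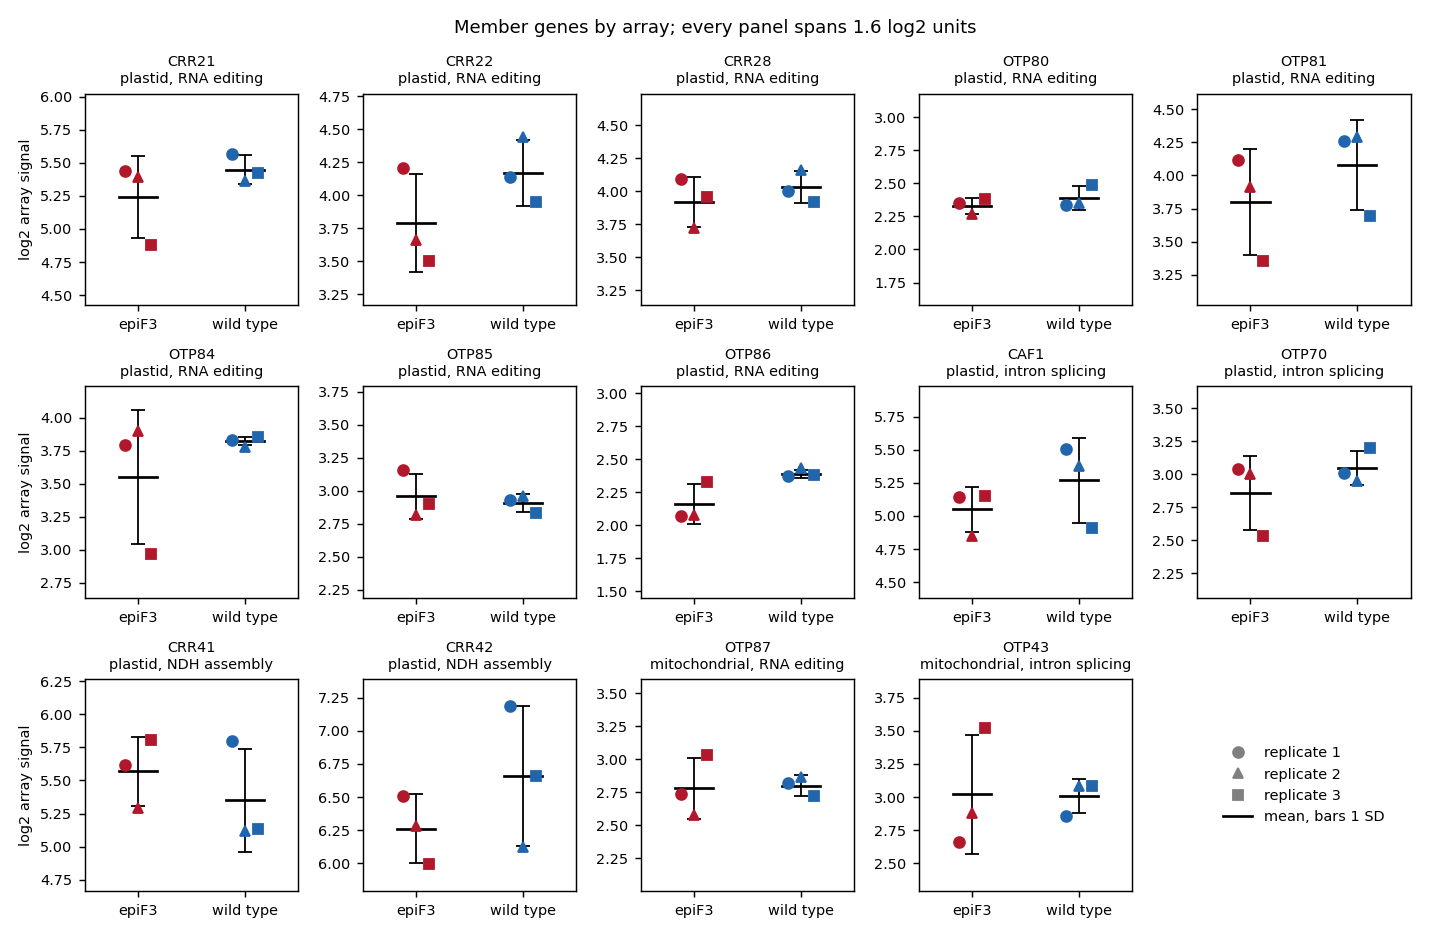
Log2 array signal (vertical axis) of each of the 14 genes on the 3 epiF3 arrays (left) and the 3 wild type arrays (right), with symbols for replicates 1 to 3, the mean and bars of 1 SD. All panels span the same range of log2 units, and OTP86 is the gene whose groups do not overlap, and in OTP84 epiF3 replicate 3 (2.97) stands below the other 5 arrays.

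The plastid splicing genes were CAF1 and OTP70, with changes of -0.22 and -0.19 (standard errors 0.18 and 0.17). CAF1 is a CRM-domain protein that works with CRS2 in the removal of several group II introns. Its signals were 5.14, 4.85 and 5.15 in epiF3, against 5.51, 5.38 and 4.91 in wild type. The wild type arrays themselves spread widely, and replicate 3 of wild type lay below 2 of the epiF3 arrays. Without that array the change was -0.40 (limma adjusted p = 0.394), without replicate 1 of the wild type it was -0.10, and without epiF3 replicate 2 it was -0.13. OTP70, a PPR protein needed for splicing of rpoC1, another polymerase subunit transcript, showed 3.04, 3.00 and 2.53 in epiF3, against 3.01, 2.95 and 3.20 in wild type. Again replicate 3 of epiF3 was the low array, and without it the change was -0.03.

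CRR41 and CRR42 meet the naming rule but are known for assembly of the NDH complex in the stroma, not for RNA metabolism, and they held both the largest positive and the largest negative change of the 14. CRR42 signals were 6.51, 6.28 and 5.99 in epiF3, against 7.19, 6.12 and 6.66 in wild type. Its wild type SD of 0.53 was the largest of any of these genes, and the change of -0.39 (standard error 0.27, adjusted p = 0.64 in limma) was -0.13 without replicate 1 of the wild type, and -0.66 without its replicate 2. CRR41 signals were 5.62, 5.29 and 5.81 in epiF3, against 5.80, 5.12 and 5.13 in wild type. Replicate 1 of wild type was level with the highest epiF3 array while the other 2 lay below all epiF3 arrays. The change was 0.22 (standard error 0.22), or 0.45 without wild type replicate 1 (limma adjusted p = 0.469). It was 0.11 without wild type replicate 2 or 3, and 0.105 without epiF3 replicate 3. With these 2 genes left out, an alternative added after seeing the data, 10 of 12 changes were negative and 0 passed the threshold.

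The mitochondrial factors OTP43 and OTP87 had changes near 0 over all 6 arrays, with epiF3 arrays on both sides of the wild type range, and a median of -0.195 without epiF3 replicate 3. OTP43, a PPR protein needed to join the separately transcribed pieces of nad1, which encodes a subunit of respiratory complex I, had signals of 2.66, 2.88 and 3.52 in epiF3, against 2.86, 3.08 and 3.08 in wild type. Replicates 1 and 3 of epiF3 were the lowest and the highest of all 6 arrays. The change was 0.01 (standard error 0.22), and -0.24 without epiF3 replicate 3. OTP87, which directs editing of nad7 and atp1, showed 2.74, 2.58 and 3.03 in epiF3, against 2.82, 2.87 and 2.72 in wild type. Its highest array was again epiF3 replicate 3, with a change of -0.02 (standard error 0.15) over all arrays and -0.15 without that one. In TAIR10.1 order 29 protein-coding genes lie between OTP87 and OTP43 on chromosome 1.

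EpiF3 replicate 3 stood at an end of the range for many of these genes, as it did for many of all probe sets. EpiF3 replicate 2 was the lowest of the 6 arrays for 5 of the 14 genes and the highest for 1. On epiF3 replicate 3, 6 of the 14 were at their lowest of the 6 arrays and 3 at their highest, against 26.3% and 27.6% of all probe sets. The lowest were CRR21, CRR22, CRR42, OTP70, OTP81 and OTP84, and the highest were CRR41, OTP43 and OTP87. Of the 14 genes 8 belonged to the brighter 60% of probe sets, and their median deviation from each gene's mean over all arrays was -0.46 on that array, 0.11 and -0.17 on epiF3 replicates 1 and 2, and -0.04 to 0.27 on wild type arrays. For the 6 dimmer genes (OTP43, OTP70, OTP80, OTP85, OTP86 and OTP87) it was 0.04 on epiF3 replicate 3, -0.03 and -0.13 on the other epiF3 arrays, and 0.01 to 0.08 in wild type. The part of that array's high lower quartile and high hybridization controls in these values was not tested.

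The medians moved with that array, and those over the 14 genes and the plastid factors also moved with wild type replicate 1. The median change of the 8 brighter genes was -0.24 over all arrays and -0.09 without epiF3 replicate 3. Over all arrays it was -0.02 for the brighter 60% of probe sets. For the 6 dimmer genes it was -0.04 over all arrays and -0.12 without epiF3 replicate 3. Over the 14 genes the median was -0.11 without epiF3 replicate 3, 11 of the changes were negative, and all 14 intervals then lay inside 2-fold. With wild type replicate 1 left out instead, the median over the 14 genes was -0.124 and the plastid median -0.139. The SD was larger in epiF3 than in wild type for 10 of 14 genes, against 55.5% of all probe sets.

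**Figure D3:**
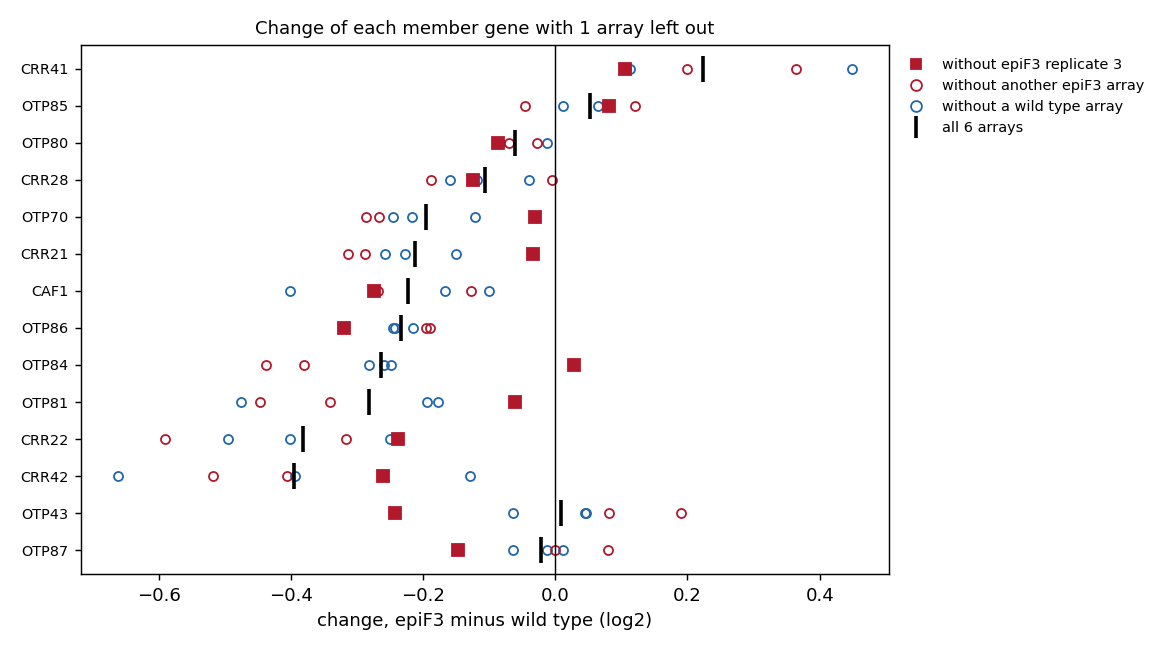
Change of each gene (horizontal axis, epiF3 minus wild type, log2 units) with all 6 arrays (black bars) and with 1 array left out (symbols), by gene (vertical axis). Filled squares show the fit without epiF3 replicate 3: they lie close to 0 or past it for CRR21, OTP70, OTP81 and OTP84, and are the lowest symbols of OTP43, OTP86 and OTP87, among others.

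None of 4 genes just outside the naming rule passed the limma threshold. MEF8S, a PPR gene of mitochondrial editing whose symbol ends in a letter, had signals of 2.89, 3.06 and 2.95 in epiF3, against 2.84, 3.16 and 3.01 in wild type (change -0.04, standard error 0.13). Through RefSeq synonyms the rule would also take AT5G55580, or MTERF9, a plastid member of the mitochondrial transcription termination factor family (change -0.04, standard error 0.26). It would further take NdhS, or CRR31 (-0.15, standard error 0.19), and NdhL, or CRR23 (0.21, standard error 0.23), both subunits of the NDH complex. With these 3 added, 13 of 17 changes were negative, with a median of -0.146, and 0 passed.

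Other factors of organelle genomes and their expression, from 6 lists of 189 entries, were measured under a name in 8 cases, and 0 of the 8 passed the limma threshold or had an unadjusted p under 0.05. Changes were negative for 6 of 8, with a median of -0.24, and the arrays of 4 did not overlap between the groups. Over all probe sets 44.3% were negative and 16.9% did not overlap, and in the brighter 60% of probe sets 54.2% were negative. No gene of the list of plastid RNA polymerase-associated proteins was among them. LPA66, a plastid editing factor, showed 5.35, 4.95 and 4.52 in epiF3, against 5.43, 5.39 and 5.18 in wild type (change -0.40, standard error 0.21, limma adjusted p = 0.562). CFM3A, a CRM-domain splicing factor of the same family as CAF1, showed 5.57, 5.32 and 5.19 in epiF3, against 5.69, 5.74 and 5.60 in wild type (change -0.32, standard error 0.14, limma adjusted p = 0.471). Every epiF3 array of CFM3A lay below every wild type array, as also for ATAB2 (change -0.27), known for plastid translation of photosystem proteins, and for FUG1 (-0.22), a plastid translation initiation factor. The related CFM3B had a change of -0.30 (standard error 0.36) over all arrays and 0.15 without epiF3 replicate 3, where its signal was 3.63. Without that array, an alternative added after seeing the data, the change of LPA66 was -0.19.

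The 1 measured gene of mitochondrial editing and splicing lists was PPR596, with signals of 7.23, 7.37 and 7.12 in epiF3, against 7.0, 6.93 and 7.01 in wild type. All its epiF3 arrays were above all wild type arrays (change 0.26, standard error 0.12, limma adjusted p = 0.506). Of organelle genome maintenance, OSB1, a single-stranded DNA-binding protein of mitochondria, had a change of 0.43 (standard error 0.22, and 0.21 without epiF3 replicate 3) with overlapping groups, and FTSZ2-1, of plastid division, one of -0.16.

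Transcripts on which these factors act could be read as array signal only. The values used here do not separate edited from unedited or spliced from unspliced RNA. How fully labelling captured organelle RNA was not tested, so these signals are not taken as transcript amounts. Of 11 target transcripts of the 14 genes, taken from general knowledge after the results were seen, 8 were measured under a name and 0 passed the limma threshold or had an unadjusted p under 0.05. ndhD, the target of CRR21, CRR22, CRR28 and OTP85, stood at 9.41, 9.14 and 9.01 in epiF3, against 8.80, 9.50 and 9.15 in wild type, a change of 0.04 (standard error 0.20.) rpoC1, spliced with OTP70, stood at 8.35, 8.09 and 8.01 in epiF3, against 8.18, 8.61 and 8.61 in wild type (change -0.32, standard error 0.17). Only the first epiF3 array of rpoC1 was above a wild type array. rps14, the target of OTP86, had a change of -0.45 (standard error 0.30), which ran from -0.76 to -0.27 with 1 array left out. psbZ, a target of OTP84, had one of -0.29, or -0.11 without epiF3 replicate 3 and -0.15 without wild type replicate 2. nad1, joined with OTP43, had one of -0.13 (standard error 0.33), and its signals were 2.92, 3.10 and 4.26 in epiF3, against 3.74, 3.64 and 3.28 in wild type. Its epiF3 replicate 3 was the highest of the 6 arrays, as for OTP43, and the change was -0.54 without that array and 0.13 without epiF3 replicate 1. ndhF (0.22), rpoB (0.09) and nad7 (0.03) had positive values, with 6, 5 and 3 of their 6 signals in the lowest 25% of an array. Every epiF3 array of ndhF (1.99 to 2.20) lay above every wild type array (1.80 to 1.96), as for 9.75% of all probe sets.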

How the data were processed

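Values are log2 signals as the authors deposited them, made with RMA (a robust summary of the probes in a set) and the R package affy per the submitters' processing notes. Sources used here do not name versions, the background method or the probe set file. The range of the values fits a log2 scale. Of 22810 probe sets, 64 array controls were left out and 22746 tested. Gene names came from the platform annotation, with symbols updated through RefSeq (TAIR10.1). A single gene is named by 13513 of the probe sets tested, several genes by 503, and 8730 are unnamed here.

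Groups came from sample titles. A limma model (version 3.58.1, R 4.3.3) without a block gave epiF3 minus wild type, two-sided, from 3 arrays a group, with p adjusted by Benjamini-Hochberg over all probe sets tested. The fit was tested on simulated data in which a probe set had the same spread on every array. That cannot show how the fit behaves with an array like epiF3 replicate 3. Summaries used Python 3.11.15 with pandas 2.3.3, and figures matplotlib 3.10.9.

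The members and gene lists were chosen with earlier results of these data known. All members are named. Values on every array were to be given where a member passed, its groups did not overlap, or it had 1 of the 3 largest rises or falls of its compartment. CRR21, CRR28, OTP70, OTP84 and CAF1 were added to these after their values were seen. Compartments and roles are from general knowledge. Lists were matched by symbol or by a synonym of 1 gene. Alternatives were median centring, quantile normalization, a filter on the dimmest 40%, trended moderation, a weight for each array, a replicate block, the hybridization control level as a covariate, other membership rules and leaving out each array. Deviations from the group means of arrays with the same number correlated at -0.0775, -0.0424 and -0.0453, so the numbers were not taken as pairs. Dates and batches are not used here. The number of arrays limits the precision. Sequences of these genes are not used here.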

Additional observations from a re-analysis of the deposited data

Results flagged for a closer look

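The hybridization controls, foreign RNAs added before hybridization and outside the comparison, averaged 10.53 on epiF3 replicate 3 (log2, 18 probe sets), 8.19 and 8.36 on the other epiF3 arrays, and 7.11 to 8.21 on wild type arrays. The value of 10.53 is listed because it lies above every wild type array, as 8.36 also does, and it is the highest of all arrays. With the level as a covariate, which partly overlaps with the group, the plastid median was -0.02 and the mitochondrial median -0.29.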

How the results depend on the processing

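No member passed the limma threshold in any of the 13 alternative fits or under the 4 other membership or probe set rules. Among these rules, the mean of all probe sets of a gene could not change a result, since each of the 14 genes has a single probe set. The lowest adjusted p of a member was 0.21 (OTP86, array weights), and at most 1 member in a fit had an unadjusted p under 0.05. It was OTP86 after quantile normalization, with array weights, with the covariate and without epiF3 replicate 3 (limma p 0.0184, 0.0195, 0.0431 and 0.0211). In other fits with 1 array left out it was CRR41, CRR42, CAF1 or CRR22. The count over all probe sets was 136 (61 higher, 75 lower); it was 449 (208 and 241) with array weights, 74 (26 and 48) with the replicate block, 24 (6 and 18) with the hybridization control covariate, and 33 to 402 (11 to 115 and 22 to 287) with 1 array left out. With the covariate the median change was -0.063 over members, -0.015 for plastid and -0.293 for mitochondrial members. With 1 array left out it was -0.228 to -0.106, -0.277 to -0.074 and -0.195 to 0.095. Signs of uncalled changes turned for OTP80 (0.01) and OTP87 (0.049) after median centring, OTP85 (-0.004) after quantile normalization, OTP43 (-0.174) with array weights, and CRR21 (0.065), OTP43 (-0.402), OTP70 (0.016), OTP81 (0.196) and OTP84 (0.181) with the covariate. With 1 array left out the ranges were -0.243 to 0.19 for OTP43, -0.438 to 0.029 for OTP84, -0.046 to 0.12 for OTP85 and -0.147 to 0.08 for OTP87. The other 6 members kept their sign throughout. The replicate block changed no member's call. The causes were not tested. The dimmest 40% filter removes 6 members, both mitochondrial ones among them, so their median has no value there.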
